A study of Mus musculus with 912 samples.

Results

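The clustered protocadherins are a family of neuronal cell-adhesion genes that lie in 3 neighbouring clusters, called alpha, beta and gamma, on mouse chromosome 18. Members were taken by name from the deposited tables, as every row whose symbol begins with Pcdha, Pcdhb or Pcdhg followed by a digit or by a, b or c and a digit. That gave 56 members of 42802 rows in the count tables (13 alpha, 22 beta and 21 gamma) and 43 members of 40221 rows in the tables of log2(TPM + 1), the log of the level in transcripts per 1000000 (7 alpha, 22 beta and 14 gamma). A member was called detected in a nucleus when its log2(TPM + 1) was above 1. The number and identity of detected members were compared between cell types, between mice kept in the home cage and mice exposed to a new environment, and between FOS+ and FOS- nuclei, with the animal as the replicate.

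The nuclei came from the hippocampus of female C57BL6 mice aged 7.75 to 9 weeks by the labels, and each nucleus was made into its own Smart-seq2 library. In the first experiment, nuclei were sorted on PROX1, CTIP2 and FOS protein from home-cage mice (HC) or from mice killed 1 h after 15 min in a new environment, and carried the submitters' predicted types dentate gyrus (DG), CA1, VIP interneuron, CA3, subiculum (Sub), Ivy, Pvalb and Th (thalamus). In the second experiment, every nucleus was a DG nucleus sorted as PROX1+, CTIP2+ and ARC+. Mice had been exposed for 15 min to a context A and were killed at 4 h or 5 h (FOS- nuclei), or were placed 4 h later for 15 min into the same context again (A>A) or into another context (A>C) and killed after 1 h more (FOS+ and FOS- nuclei). FOS and ARC are products of immediate-early genes and mark neurons with recent activity. Of 912 nuclei, 818 had at least 100000 aligned reads and 4000 detected genes. A further 35 FOS- nuclei of the HC and 1 h groups with Arc above 2.5 on the log2 scale were left out, and 783 nuclei of 29 animals remained.

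Total counts of the kept nuclei ranged from 142275 to 5885216, with a median of 1251690. DG nuclei of the first experiment had all 5 listed DG markers above 1, VIP nuclei all 4 listed markers that were in the tables, CA1 nuclei 4 of 5 and CA3 nuclei 3 of 4. Sub nuclei had 3 of 4, but so did DG, CA3 and second-experiment DG nuclei, so that list did not set Sub apart. Fn1, the highest Sub marker, was above 1 in every type. Sub nuclei also had 3 of 5 CA1 markers above 1. Of 5 markers of other interneurons, CA3 nuclei had 4 and CA1 and VIP nuclei 3 each. Vip was near 0 in every type but VIP, whereas Gad1, another listed VIP marker, was also above 1 in DG (2.46) and in the second experiment's DG nuclei (3.38). Of 11 glia markers, 3 or 4 were above 1 in each type, and their part in the results was not tested. Ages differed within some mouse numbers of the second experiment, and animals were defined by exposure and mouse number. For DG, the 1 h groups held 1 animal.

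Alpha and gamma genes each have a variable first exon, which encodes the extracellular cadherin repeats and the membrane span and has its own promoter, and splice to constant exons shared across the cluster. Beta genes have a single coding exon and no constant exons. A neuron is known to choose a few of the promoters in a largely stochastic way, with CTCF and cohesin looping a chosen promoter to an enhancer and DNA methylation keeping the others silent, whereas the C-type genes (Pcdhac1, Pcdhac2, Pcdhgc3, Pcdhgc4, Pcdhgc5) follow cell type more closely. The proteins of a cell combine at its surface and bind the same combination on another membrane, by which a neuron recognises its own branches.

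In the GENCODE vM21 annotation of GRCm38, all members lie on the plus strand of chromosome 18. The alpha cluster spans 36930184 to 37187661, the beta cluster 37264938 to 37524479 and the gamma cluster 37661793 to 37841873. Of the exon bases of an alpha gene, 28.5% to 54.94% also belonged to another member, and for gamma genes 27.78% to 66.79%. Reads in those constant exons cannot name a member by themselves and were divided by the authors' quantification, so values of single alpha and gamma members are less certain than those of beta members. Among beta genes, Pcdhb21 and Pcdhb22 alone overlapped, over 455 exon bases. Pcdhgc4, a C-type gene needed for the survival of some interneurons, was annotated in the gamma cluster and was not analysed here.

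Few of the 43 members in the log2 tables were detected in a nucleus. Members with counts only do not enter these numbers, nor the numbers per cluster and the sets of detected members below. Over the 783 nuclei the mean was 3.42 detected members and the median 3, with 89.02% of nuclei at 0 to 5. No member was detected in 11 nuclei, 236 nuclei had 3, and 2 nuclei had 10. A single nucleus had 22, namely a DG nucleus of mouse 17 in the 4 h group, with 5 alpha, 8 beta and 9 gamma members. It had 14054 detected genes against a median of 5712 for its animal and group, and none of its members was above 5 on the log2 scale. No other nucleus had more than 10 members.

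Among the 43 members of the log2 tables, a pair was found nearly everywhere and a long series rarely. Of 2680 detections, 48.06% came from Pcdhb22, the last beta gene of the cluster, and Pcdhgb4, a gamma B gene. Pcdhgb4 was detected in 84.93% of nuclei and Pcdhb22 in 79.57%, at low levels (median log2(TPM + 1) of 2.60 and 2.02 where detected), and few of their detections were above 5 (5.86% and 2.09%). Pcdhb5 was detected in 38.44% of nuclei at a median of 1.59. These 3 members were thus frequent and low.

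Of the other 40 members in the log2 tables, 38 were detected in at least 5 nuclei, in 0.639% to 23.37% of nuclei with a median of 3.19%. In the nuclei that had them, their median levels ran from 1.5 to 7.12 on the log2 scale, with a median of 5.42, and 34 of the 38 were above 4. Pcdha4 was the most frequent of these at 23.37% of nuclei, with a median level of 5.26. Pcdhb7 was detected in 5.49% of nuclei at a median of 7.12, the highest of the 38. Pcdhb1 was detected in 0 of 783 nuclei, which allows a share of up to 0.383% by counting error alone.

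**Figure D1:**
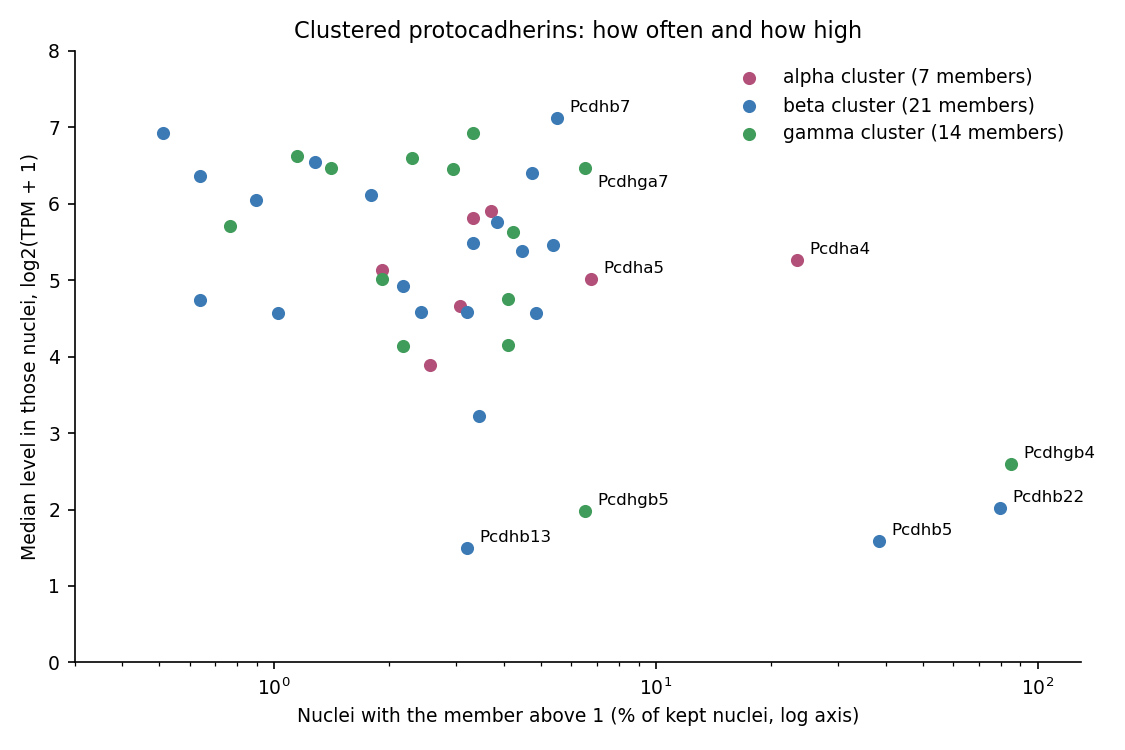
Each point is a clustered protocadherin gene detected in at least 1 of 783 nuclei, with the percentage of nuclei in which it was above 1 on the x axis (log scale) and its median log2(TPM + 1) in those nuclei on the y axis; colours mark the alpha, beta and gamma clusters. Pcdhb22, Pcdhgb4 and Pcdhb5 lie far to the right at levels of 1.59 to 2.60, and all others lie at 23.37% of nuclei or less.

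The 13 members of the count tables that were not in the log2 tables were described by the share of nuclei with at least 5 counts. Of the 11 with a value in every nucleus, Pcdhgc5 was the most frequent, in 271 of the 783 nuclei. Pcdhga8 reached 5 counts in 282 of the 681 kept nuclei in which it had a value, and Pcdha11 in 149 of 716. Pcdha11 and Pcdhga8 had no value in 84 and 124 nuclei of the first experiment, and in nuclei with a value they reached 5 counts in 12.7% to 47.8% (Pcdha11) and 37.5% to 71.4% (Pcdhga8) over the cell types. Pcdhac1, Pcdhac2 and Pcdhgc3 were rare.

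The number of members per nucleus was compared between cell types over FOS- nuclei of the HC and 1 h groups, as means over animals with at least 2 such nuclei. In DG, the means were 3.56 and 4.4 in HC mice and 3.48 in the 1 h mouse, or 3.81 ± 0.51 (SD, n = 3 animals). In CA1 they ranged from 3.00 to 7.33, or 4.44 ± 1.52 (n = 6), and in VIP nuclei from 3.60 to 6.83, or 5.21 ± 1.22 (n = 5). CA3 gave 4.57 ± 0.86 (n = 3) and Sub 4.24 ± 0.69 (n = 5). Every pair of types overlapped in its animals. DG minus VIP was -1.40 members (two-sided exact permutation p = 0.125). DG had the lowest mean at this threshold, but lay above CA1 at threshold 3, with at least 5 counts as detection, after thinning to 100000 counts and per 1000 detected genes. The other 4 comparisons had exact permutation p of 0.387 to 0.929, and none passed adjustment over the 5. All CA3 and Sub animals and some VIP animals also gave CA1 nuclei. The tests here and by cluster treated them as separate animals, and no paired test between types was run.

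By cluster, the sharpest difference in number was in alpha genes, of which the log2 tables held 7 of 13. DG animals had 0.491 ± 0.081 alpha members per nucleus (0.4 to 0.556) and VIP animals 0.880 ± 0.179 (0.600 to 1.00). The animals of DG and VIP did not overlap, but the difference did not pass correction (exact permutation p = 0.0357, adjusted p = 0.179; smallest possible p 0.0179). For beta members the same comparison gave 1.88 ± 0.28 in DG against 2.85 ± 0.72 in VIP (exact permutation p = 0.0714, adjusted p = 0.357). Gamma members were at 1.45 ± 0.31 and 1.49 ± 0.45. No cluster differed past the threshold in any of the 5 comparisons of cell types.

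Detection shares of single members were set beside each other between cell types, and the differences lay mostly within the wide spread between animals. The 5 members with the largest differences in detection share between DG and CA1 were Pcdhb5, Pcdhgb4, Pcdhga7, Pcdhb22 and Pcdhb7, chosen by that difference and given without a test. Pcdhb5 was detected in 29.6%, 11.1% and 0% of the nuclei of the 3 DG animals and in 0% to 100% in CA1 animals, with means of 13.6% and 46.1%. The CA1 range enclosed all DG animals. Pcdhga7, a gamma A gene, had means of 24.9% in DG and 9.62% in CA1, but 60.0% in HC mouse 7 (5 nuclei) carried the DG value, with 3.70% and 11.1% in the others. Pcdhb7 had means of 6.17% in DG and 19.8% in CA1, where HC mouse 8 (3 nuclei) reached 66.7%.

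For VIP against CA1 the rule named Pcdha4, Pcdhb9, Pcdhb18, Pcdhb7 and Pcdhb17. Pcdha4, an alpha gene, was detected in 33.3% to 100% of nuclei in VIP animals and in 0% to 41.7% in CA1 animals, with means of 54.0% ± 26.5 and 21.3% ± 15.6. Pcdha4 reached 66.7% ± 30.6 in CA3, 34.7% ± 27.2 in Sub and 32.6% ± 12.2 in DG. By these means it was the member with the widest use after Pcdhb22 and Pcdhgb4 in VIP and CA3. VIP 1 h mouse 2 and CA3 HC mouse 8 gave 2 nuclei each and weighed as much in these means as the other animals. Pcdhb18 was found in 3 of 5 VIP animals, at up to 33.3% of nuclei, and in no CA1 animal. Pcdhb9 averaged 18.7% in VIP and 2.67% in CA1, and Pcdhb17 20.0% and 9.72%. VIP animal values for Pcdhb9 ran from 0% to 50.0%, and 2 of the 5 animals had none.

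At the other end, Pcdha3 and Pcdha9 were the least frequent alpha genes over the 5 types. Pcdha3 was detected in VIP (4.67%) and Sub (5.00%) and in none of the nuclei of DG, CA1 and CA3, and Pcdha9 was not detected in VIP or CA3 nuclei and averaged 5.56% at most. Pcdhb10 was detected in VIP alone (4.67%) among the 5 types. Pcdhga1 was detected in none of the 5 types and Pcdhga10 in CA1 alone (1.39%), and both were present in the second experiment's DG nuclei (0.766% and 1.15% of all kept nuclei). Pcdha6 had the second-highest alpha share over the types, mostly through CA3 (23.3%). The nuclei behind these shares were 52 DG, 40 CA1, 39 VIP, 13 CA3 and 22 Sub, so a share of a few percent rests on 1 to 3 nuclei.

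**Figure D2:**
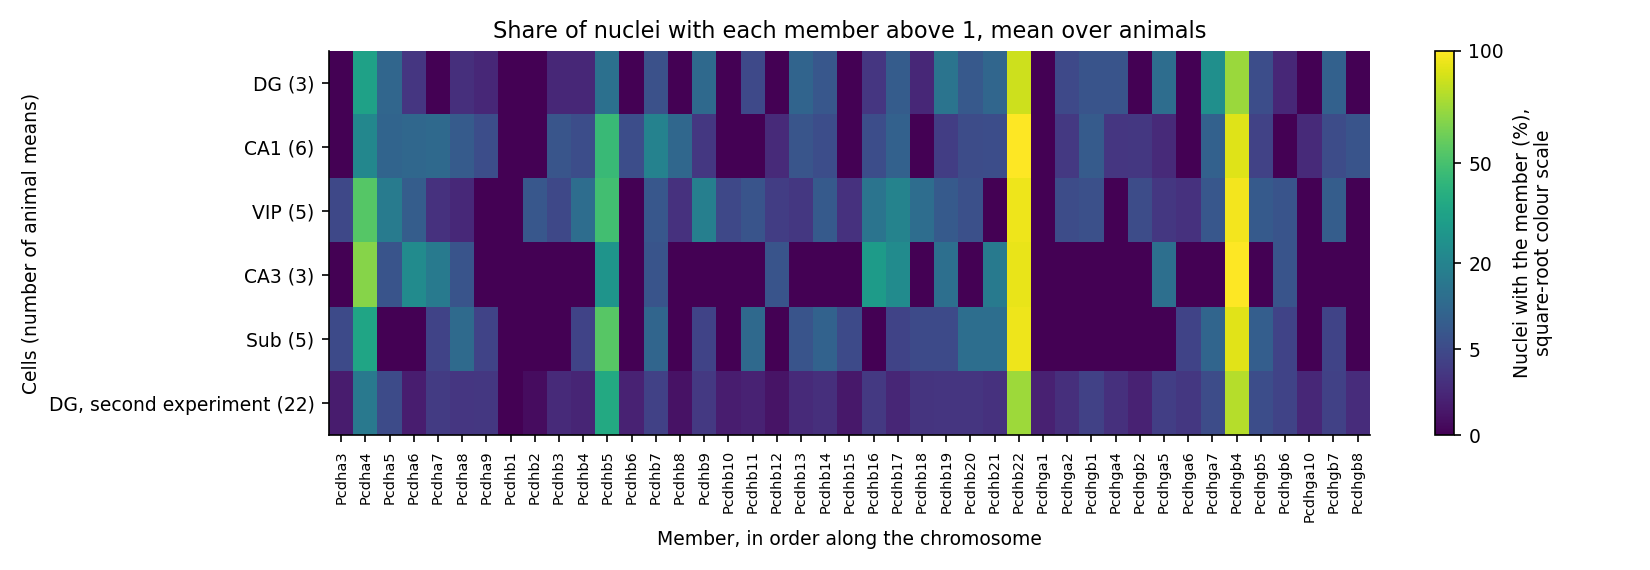
Columns are the 43 members of the log2 tables in their order along the chromosome, rows are cell types with the number of animal means, and colour gives the mean percentage of nuclei in which the member was above 1 (square-root scale). Pcdhb22 and Pcdhgb4 form bright columns in every row, Pcdha4 and Pcdhb5 are intermediate, and the remaining members are at 30.0% or less.

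Counts were then summed over the nuclei of an animal and type and tested with edgeR across all genes, where 35 of the 54 members with a count in every nucleus passed the filter on low counts. No member passed an adjusted p of 0.05 in DG against CA1 (0 of 35, beside 0.204% of all genes tested), VIP against CA1 (0, beside 0.726%), DG against VIP (0, beside 0.594%), CA3 against CA1 (0, beside 0%) or Sub against CA1 (0, beside 0.018%). An unadjusted p under 0.05 was reached by 6, 11, 7, 4 and 14 members, which is 17.1%, 31.4%, 20%, 11.4% and 40% of those tested, beside 8.7%, 14%, 12.7%, 6.96% and 12.1% of all genes. Some animals gave nuclei of several types, and with the animal as a replicate block, which was run for VIP, CA3 and Sub against CA1, 7, 1 and 0 members had an unadjusted p under 0.05. DESeq2 called 2, 4, 5, 5 and 5 members in the 5 comparisons, beside 3.32%, 7.19%, 7.1%, 3.83% and 5.17% of all genes it tested. Limma on mean log2(TPM + 1), where 9 members passed its filter, called 0 in each, beside 0.811%, 2.42%, 2.01%, 0.745% and 0.278%. The lowest adjusted p by edgeR was 0.168, for Pcdhb9 in VIP against CA1. The median log2 fold change of the members was 0.51 for DG against CA1, 0.20 for VIP against CA1 and 0.035 for DG against VIP. It was -1.87 for CA3 against CA1, where 10 of 35 members were positive, and -0.10 for Sub against CA1. Over all genes tested, these medians were -0.10, -0.08, 0, -0.14 and -0.04 in that order.

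Pcdhgc5 was the C-type member with enough counts to follow across types. Pcdhgc5 belongs to the gamma cluster, and its protein binds a GABA-A receptor subunit. In DG it had 137 and 387 counts per 1000000 (CPM) in HC mice 6 and 7 and 193 CPM in 1 h mouse 3, and in CA1 86.9 to 223 CPM over 6 animals with a median of 123. In VIP nuclei it had 0.452, 5.71, 24.7, 30.5 and 35.3 CPM. All VIP animals were below all CA1 and all DG animals. The edgeR log2 fold change was -2.75 (SE 1.22, adjusted p = 0.303, unadjusted p = 0.0362) for VIP against CA1 and 3.78 (SE 1.38, adjusted p = 0.256, unadjusted p = 0.0127) for DG against VIP, so neither passed over all genes.

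Pcdhgc5 in CA3 was at 0.379, 1.81 and 47.4 CPM, and in Sub at 0.909 to 204 CPM. By the share of nuclei with at least 5 counts, Pcdhgc5 was at 48.3% ± 27.9 in DG, 45.7% ± 17.9 in CA1, 37.0% ± 28.6 in Sub, 19.3% ± 19.2 in VIP and 13.3% ± 11.5 in CA3. The order by share was the same as that by mean CPM, and neighbours in it did not differ beyond their spread over animals. The other C-type members were rarer. Pcdhac2 reached 5 counts in 3 of 52 DG nuclei, with 40.0% in HC mouse 7 (5 nuclei) and 0% and 3.70% in the other DG animals, and averaged 10.3% in CA1 and 7.33% or less in VIP, CA3 and Sub. Pcdhac1 reached 11.7% in Sub, and Pcdhgc3, which shapes dendrites of cortical neurons, was at most 7.84% in DG nuclei of the second experiment and reached 5 counts in no CA1 FOS- nucleus.

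**Figure D3:**
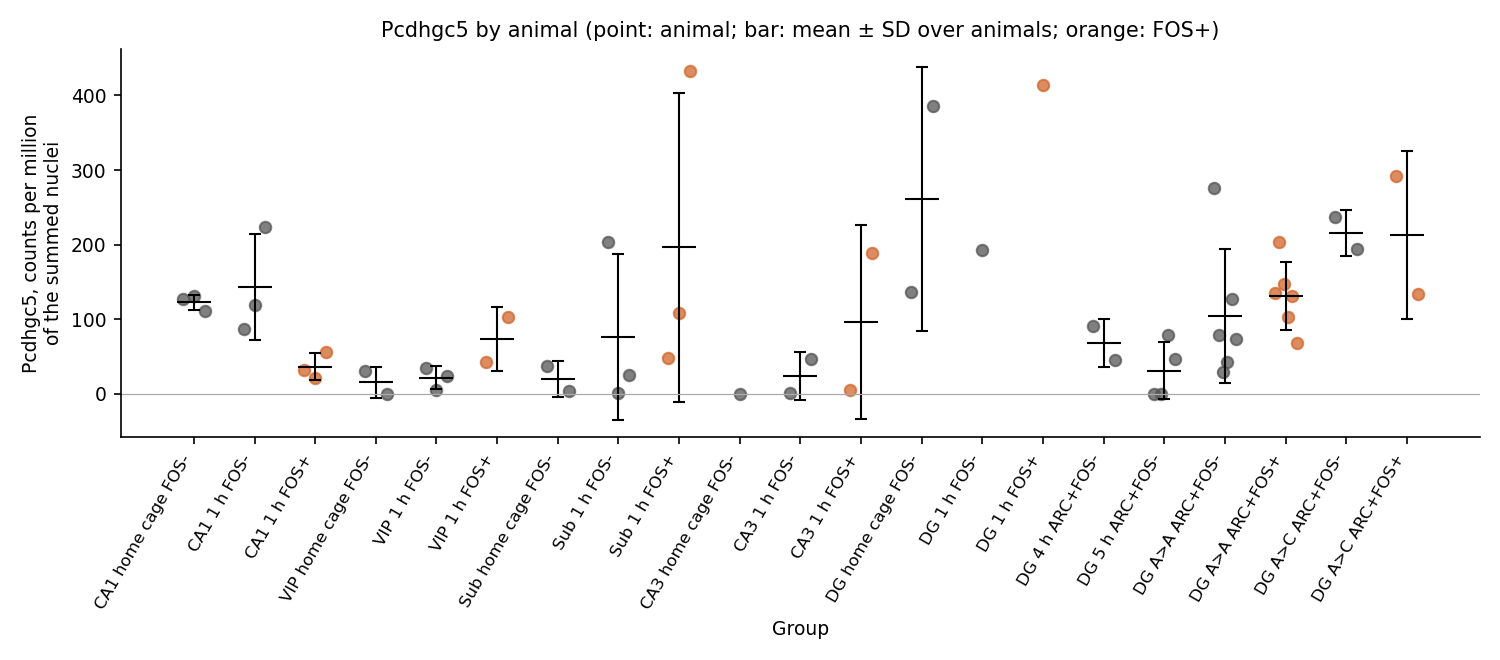
Points give Pcdhgc5 in CPM of the summed nuclei of an animal (y axis) for each cell type and group (x axis), with FOS+ groups in orange and bars for the mean ± SD over animals. VIP FOS- animals lie at 0.452 to 35.3, below the CA1 FOS- animals at 86.9 to 223.

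Counts were also summed over the 54 members with a value in every nucleus, cluster by cluster. These sums do not depend on how constant-exon reads were divided among those members, but lack reads assigned to Pcdha11, Pcdhga8 and members not in the tables. This description was chosen after the data were seen. The mean beta total per nucleus was 476 ± 288 CPM in VIP animals (175 to 950) and 150 ± 106 CPM in CA1 animals (31.9 to 281), which overlapped (exact permutation p = 0.013, adjusted p = 0.0649). The gamma total was 64.3 ± 27.7 CPM in CA3 animals and 318 ± 137 CPM in CA1 animals, without overlap (exact permutation p = 0.0476, adjusted p = 0.119). The gamma total in DG was 481 ± 315 CPM against 181 ± 103 CPM in VIP (exact permutation p = 0.0357, adjusted p = 0.119). For alpha, DG and VIP overlapped, at 216 ± 115 CPM and 252 ± 196 CPM (exact permutation p = 0.839). For the 54 members together, the totals were 1054 ± 607 CPM in DG, 645 ± 148 in CA1, 909 ± 352 in VIP, 387 ± 173 in CA3 and 679 ± 364 in Sub. No total passed correction, and animals shared between types were not paired in these tests.

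**Figure D4:**
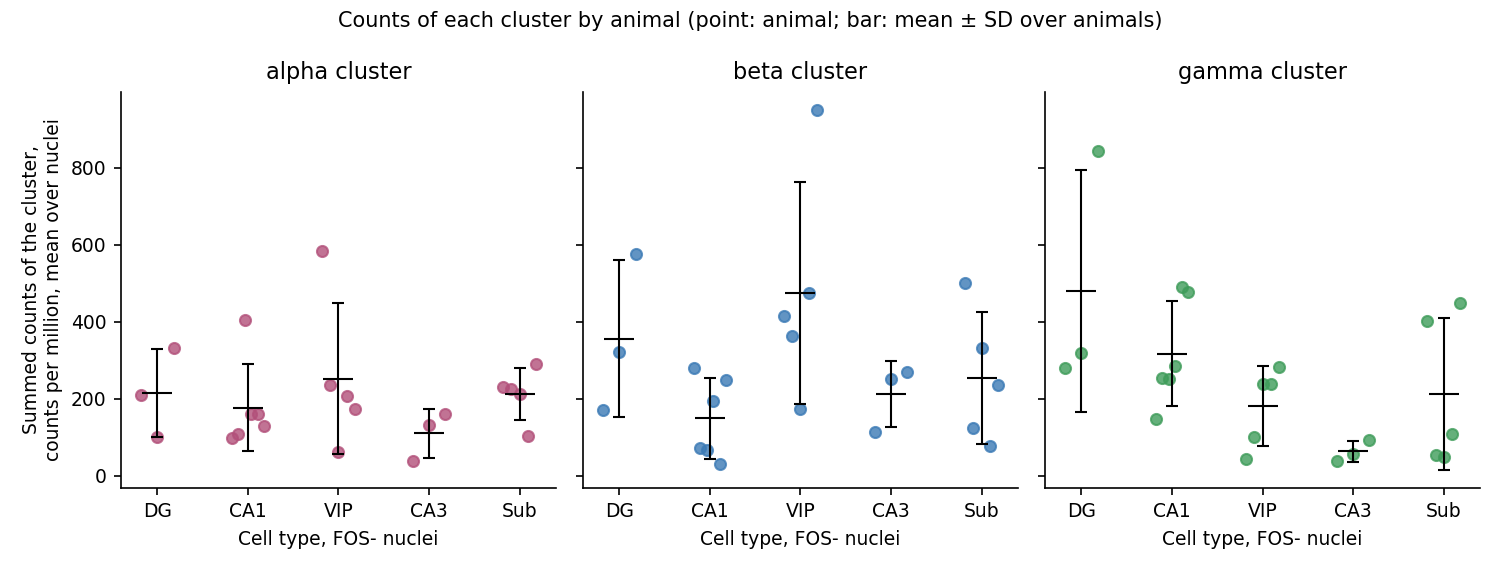
Points give, for each animal, the mean over nuclei of the summed CPM of the alpha, beta or gamma cluster in FOS- nuclei of 5 cell types, with bars for the mean ± SD over animals. Beta totals of VIP animals reach 950, above the 281 of the highest CA1 animal, while gamma totals are lowest in CA3 at a mean of 64.3.

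FOS+ and FOS- nuclei were compared within a cell type and exposure. In CA1 at 1 h, FOS+ means were 3.60, 3.63 and 3.25 members per nucleus (mice 10, 2 and 4) and FOS- means 4.33, 3.62 and 3.8. The groups overlapped only at mouse 2, where both kinds of nuclei were nearly equal (exact permutation p = 0.2, adjusted p = 0.833; smallest possible p 0.1). In VIP nuclei, FOS+ animals were at 4.15 and 4.64 and FOS- animals at 3.60 to 5.60 (exact permutation p = 0.8), and in Sub FOS+ was 4.27 ± 0.40 and FOS- 4.00 ± 0.75 (n = 3 animals each, exact permutation p = 0.7). In DG 1 h nuclei, which came from 1 animal, the means were 2.89 (26 FOS+ nuclei) and 3.48 (27 FOS- nuclei), with no replicate.

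Among re-exposed mice, the number of members did not separate FOS+ from FOS- DG nuclei either. A>A FOS+ animals ranged from 2.5 to 3.13 with a mean of 2.83 ± 0.25, and FOS- animals from 2.00 to 3.43 with a mean of 2.81 ± 0.57 (n = 6 each, exact permutation p = 0.946, adjusted p = 0.946). The direction of this difference turned under other detection thresholds. In the 4 A>A mice with both kinds of nuclei, pairing within the animal gave a mean difference of -0.26 members (FOS+ minus FOS-), with 1 animal higher and 3 lower (exact sign-flip permutation p = 0.375). A>C FOS+ animals were at 2.75 and 2.63, and the FOS- animals, which were other mice, at 3.42 and 3.74. The A>C groups did not overlap, but 2 animals against 2 cannot go below an exact permutation p of 0.333, which is what they gave.

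By edgeR, no member was called between FOS+ and FOS- nuclei. The counts were 0 of 13 members tested in CA1 (beside 0% of all genes), 0 of 36 in VIP (beside 0%), 0 of 53 in DG at 1 h (beside 0.0451%), 0 of 53 in A>A (beside 0.041%) and 0 of 53 in A>C (beside 0%). An unadjusted p under 0.05 was reached by 2, 6, 1, 18 and 3 members. These were 15.4%, 16.7%, 1.89%, 34% and 5.66% of the members tested, beside 4.34%, 5.67%, 3.02%, 15.4% and 4.46% of all genes. With the animal as a replicate block, the CA1, VIP and A>A comparisons gave 1, 4 and 6. DESeq2 called 0, 4, 5, 5 and 8 members, beside 1.63%, 3.22%, 4.78%, 4% and 5.09% of all genes. Limma called 0 in each, with 7, 10, 4, 4 and 4 members past its filter, beside 0%, 0%, 0.883%, 2.96% and 0.726%. In DG at 1 h each arm was 1 animal, whose spread was taken from the other DG groups, so its values have no replicate check.

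Pcdhgc5 in CA1 at 1 h was at 32.1, 21.0 and 56.2 CPM in FOS+ nuclei of mice 10, 2 and 4 and at 86.9, 120 and 223 CPM in their FOS- nuclei. FOS+ was lower in 3 of 3 mice and the groups did not overlap, with an edgeR log2 fold change of -1.85 (SE 0.71, unadjusted p = 0.0295, adjusted p = 1.00). The CA1 HC mice, at 112, 127 and 131 CPM, lay with the FOS- nuclei. By the share of nuclei with 5 counts, the same mice did not show that order. FOS+ nuclei of mice 10 and 2 were at 60.0% and 45.8% against 33.3% and 30.8% in FOS-, and mouse 4 at 25.0% against 60.0%. In the 1 h DG animal, Pcdhgc5 went the other way, with 18 of 26 FOS+ nuclei at 5 counts or more (69.2%, exact 95% interval 48.2 to 85.7) and 10 of 27 FOS- nuclei (37.0%, 19.4 to 57.6). These intervals cover counting error over nuclei only.

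Pcdhgb4 in A>A mice was at 9.04 to 23.9 CPM in FOS+ nuclei of 6 animals and at 18.7 to 41.6 CPM in FOS- nuclei of 6 animals. A single FOS+ animal, mouse 16, lay within the FOS- range. The edgeR log2 fold change was -1.06 (SE 0.50, adjusted p = 0.32). Per nucleus the order was the other way, with Pcdhgb4 above 1 in 89.2% of FOS+ and 73.4% of FOS- nuclei and a mean log2(TPM + 1) of 2.34 and 2.2, as means over animals. In the 2-against-2 comparison of A>C it was -2.06 (adjusted p = 0.899), where mouse 11 alone of the FOS- animals was high, at 95.6 CPM against 17.6 in mouse 12. The summed counts of the 54 members were on average lower in A>A FOS+ nuclei, and the groups overlapped. They were at 392 ± 70 CPM against 528 ± 96 CPM (exact permutation p = 0.0195, adjusted p = 0.0974). That test did not pair the 4 mice with both kinds of nuclei. FOS+ means were also lower in CA1 (308 against 563 CPM), Sub (617 against 710) and A>C (516 against 885). VIP went the other way (804 against 739). CA1 and A>C did not overlap, at exact permutation p of 0.1 and 0.333, the smallest possible for each.

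Exposure was compared with the home cage in FOS- nuclei. CA1 gave 4.58, 3.00 and 7.33 members per nucleus in HC mice 3, 4 and 8 and 4.33, 3.62 and 3.8 in 1 h mice (exact permutation p = 0.6), so all 1 h mice lay inside the HC range. VIP nuclei gave 5.53 and 6.83 in HC mice and 4.50, 5.60 and 3.60 at 1 h (exact permutation p = 0.3), and Sub 4.20 and 5.00 against 4.75, 4.00 and 3.25 (exact permutation p = 0.4). The groups overlapped in each of these 3 types. HC means were higher, but in Sub the 1 h mean was higher by 0.39, 0.46 and 0.32 members at threshold 2, at threshold 3 and with at least 5 counts, and in CA1 by 0.12 without HC mouse 8. The smallest exact p these groups allow is 0.1.

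DG nuclei of the second experiment were set beside HC nuclei of the first, and no difference passed correction. HC mice 6 and 7 were at 3.56 and 4.4, and the 4 h mice at 3.64 and 2.19. The 5 h mice were at 2.10, 2.83, 2.82 and 2.86, below both HC mice (exact permutation p = 0.0667, the smallest this design allows, adjusted p = 0.25). The 6 A>A FOS- mice ranged from 2.00 to 3.43, also below both (exact permutation p = 0.0714, adjusted p = 0.25). The A>C FOS- mice, at 3.42 and 3.74, were not tested against HC. Mouse 17 at 4 h and mouse 12 of A>C lay above HC mouse 6. For 5 h against 4 h the groups overlapped (exact permutation p = 0.733). Without the nucleus with 22 members, 4 h mouse 17 fell from 3.64 to 3.20.

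The number of genes detected moved the same way, with medians of 5660 in DG HC nuclei, 5169 at 5 h and 5057 in A>A FOS- nuclei. Exposure, the ARC sort and the experiment cannot be told apart in these comparisons. The first and second experiments were deposited as separate tables. Expressed per 1000 detected genes, the 5 h and 4 h groups changed order.

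**Figure D5:**
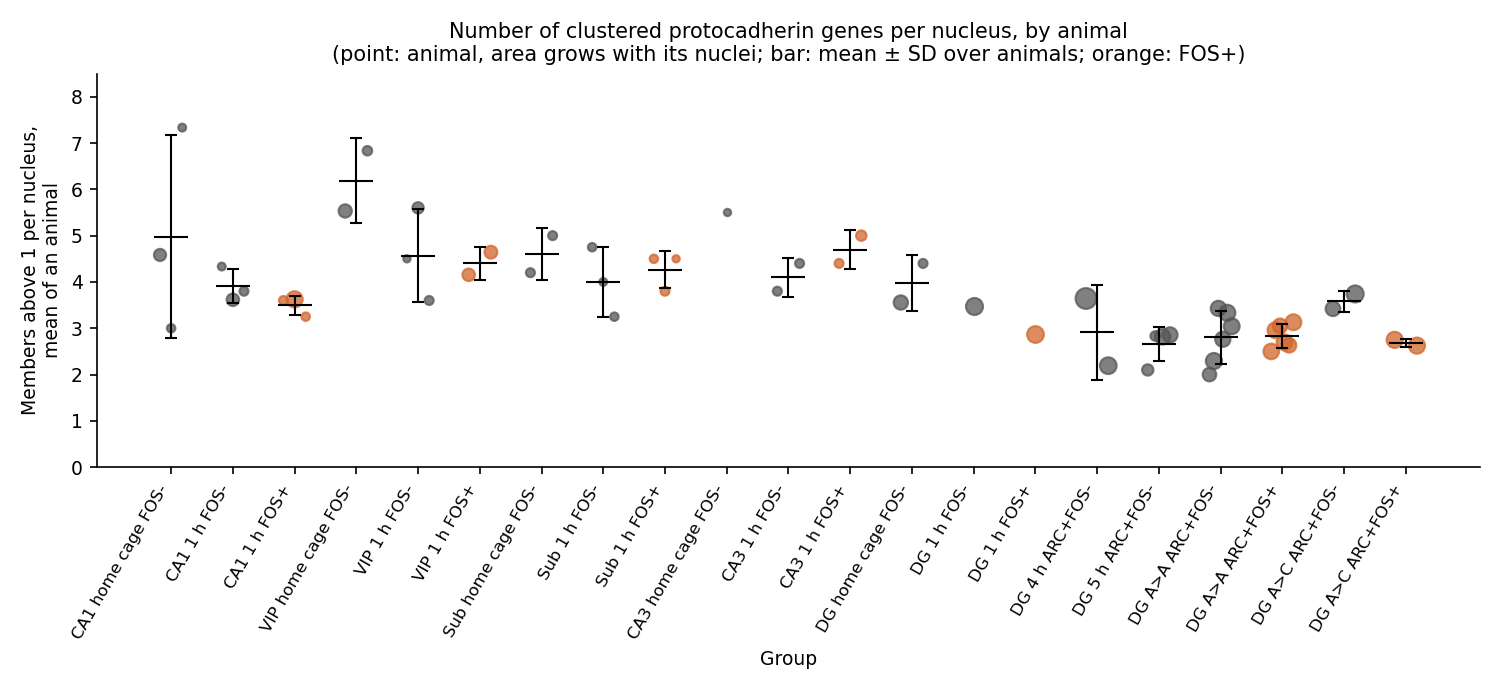
Points give the mean number of clustered protocadherin genes above 1 per nucleus in each animal (y axis) by cell type, exposure and FOS group (x axis), with area growing with the nuclei behind the point, FOS+ in orange, and bars for the mean ± SD over animals. DG animals of the second experiment lie at 2.00 to 3.74, and the widest spread is in CA1 HC animals at 3.00 to 7.33.

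No member was called by edgeR between exposures. The counts were 0 of 13 in CA1 at 1 h (beside 0% of all genes), 0 of 36 in VIP at 1 h (beside 0%), 0 of 53 in DG at 4 h (beside 0.246%) and 0 of 53 in DG at 5 h (beside 0.262%). An unadjusted p under 0.05 was reached by 0, 5, 3 and 9 members, which is 0%, 13.9%, 5.66% and 17% of those tested, beside 5.03%, 4.97%, 5.58% and 10.3% of all genes. DESeq2 called 0, 3, 4 and 11, beside 1.91%, 2.91%, 4.61% and 9.05% of all genes. Limma called 0 in each, with 7, 10, 4 and 4 members past its filter, beside 0%, 0%, 4.24% and 11.7%. Pcdhgc5 in DG was at 0.065, 0, 78.4 and 46.5 CPM in 5 h mice 22, 23, 8 and 9 and at 137 and 387 CPM in HC mice, with an edgeR log2 fold change of -3.17 (SE 1.41, adjusted p = 0.469). All 5 h animals were below both HC animals. Pcdhgb4 was in the other direction at 5 h, with 21.2, 106, 40.0 and 25.4 CPM against 10.3 and 8.15 CPM in HC (log2 fold change 2.47, adjusted p = 0.338).

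The set of members differed from nucleus to nucleus. Among 39 VIP nuclei there were 39 different sets, among 13 CA3 nuclei 13, among 40 CA1 nuclei 36, among 22 Sub nuclei 20, and among 52 DG nuclei of the first experiment 40. In the 480 DG nuclei of the second experiment there were 216 different sets, and the most common, in 55 nuclei, was Pcdhb22 with Pcdhgb4 and nothing else. Nuclei with no member other than those 2 made up 22.3% of the second experiment's DG nuclei, 13.5% of DG, 10.0% of CA1, 9.09% of Sub, 2.56% of VIP and 0% of CA3 nuclei.

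Combinations of the rarer members were seldom repeated. In DG, 29 nuclei had 2 or more members besides Pcdhb22 and Pcdhgb4, and these held 28 different sets. The same count was 25 sets in 26 nuclei in CA1, 35 in 35 in VIP, 9 in 9 in CA3, 13 in 14 in Sub and 131 in 176 in the second experiment's DG nuclei. Of all pairs of nuclei of 1 animal and type, 22.8% in DG, 25.3% in CA1, 55.1% in VIP and 19.5% in the second experiment shared at least 1 such member. At least 3 such members were shared by 4 of 176 VIP pairs, 2 of 166 CA1 pairs, 3 of 5461 second-experiment pairs and no DG pair.

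Sharing was compared between pairs of nuclei from the same animal and from different animals. The Jaccard index, the members shared by a pair of nuclei divided by the members found in either, averaged 0.298 within animals and 0.309 between animals in DG, 0.436 and 0.410 in CA1, 0.292 and 0.297 in VIP, 0.392 and 0.368 in Sub, and 0.341 and 0.336 in the second experiment. CA3, with 2 animals, gave 0.379 and 0.433. These values rest largely on Pcdhb22 and Pcdhgb4. Without that pair, the index within and between animals was 0.0714 and 0.0733 in DG, 0.102 and 0.0717 in CA1, 0.0797 and 0.0943 in VIP, 0.0908 and 0.161 in CA3, 0.148 and 0.111 in Sub, and 0.0951 and 0.0937 in the second experiment. Pairs of nuclei share nuclei with other pairs, so no test was run on these values.

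Within a nucleus, the clusters differed in how far 1 member dominated. Among nuclei with at least 20 alpha counts, the leading alpha member held a median of 100% of them in DG (25 nuclei), 100% in CA1 (19 nuclei) and 95.7% in VIP (26 nuclei). For beta genes, the leading member held a median of 88.9% in DG, 76.8% in CA1 and 77.3% in VIP. For gamma genes it held 82.9%, 90.5% and 82.2%. Pcdha11 and Pcdhga8, which lacked a value in some nuclei, were left out of these counts. The leading shares for alpha and gamma can therefore be too high. Pcdha11 reached 5 counts in 26.3% of DG, 47.8% of CA1 and 43.2% of VIP nuclei with a value. For Pcdhga8 these shares were 51.4%, 71.4% and 45.9%. More than 1 alpha member was detected in 3.85% of DG, 10.0% of CA1 and 17.9% of VIP nuclei. Besides Pcdhb22, 2 or more beta members were detected in 28.8% of DG, 32.5% of CA1 and 64.1% of VIP nuclei. VIP nuclei thus had the highest share with several members in both clusters among DG, CA1 and VIP, which was not tested over animals. For alpha, CA3 was higher at 23.1% (13 nuclei) and Sub was at 13.6% (22 nuclei). For beta, CA3 was at 23.1% and Sub at 36.4%.

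Genes next to each other on the chromosome were found together somewhat more often than genes of different clusters. Summed over 32 neighbouring pairs, both members were found in a nucleus 75 times, beside 52.0 for independent detection within each cell type. This was a ratio of 1.44, and a nucleus counted once for each pair it held. The ratio was 1.34 for members 2 or 3 genes apart (58 pairs), 1.14 for members further apart in the same cluster (180 pairs) and 1.02 for members of different clusters (471 pairs). The nucleus with 22 members and the pair Pcdhb22 and Pcdhgb4 were left out of these counts. Pairs share members and nuclei, so the ratios are descriptive.

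The spread of the number of members between nuclei was set beside that of independent detection of each member. The variance divided by the sum of p(1 - p) over members, where p is the share of nuclei with a member, was 1.10 in DG, 1.26 in CA1, 1.34 in VIP, 0.693 in CA3 and 1.81 in Sub. In the second experiment it was 1.68. Leaving out the nucleus with the most members, a step that must lower this ratio, gave 1.17 in Sub and 1.21 in the second experiment. The correlation of the number of members with the number of detected genes, across nuclei that share animals and plates, was 0.213 in DG (n = 52), 0.294 in CA1 (n = 40), 0.163 in VIP (n = 39), 0.558 in Sub (n = 22) and 0.517 in the second experiment (n = 480), and without the nucleus with the most members it was 0.278 in Sub and 0.343 in the second experiment. The correlation with the log of total counts was between -0.0834 and 0.102 in all 6 sets of nuclei.

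Genes that act on or with the clustered protocadherins were read from 2 lists. The first held 20 symbols of cluster regulators, among them Ctcf, the cohesin subunits and their loader Nipbl, Smchd1, and the DNA methyltransferases. Of these, 17 or 18 were tested in each comparison, with median log2 fold changes between -0.48 and 0.42. None was called by edgeR in any of the 14 comparisons, beside 0% to 0.726% of all genes. The second list held 16 signalling partners, including the kinases Ptk2 and Ptk2b, which the constant domains inhibit, and subunits of the WAVE complex, which remodels actin. All 16 were tested in each comparison, and 2 of them differed between cell types. In VIP against CA1, 1 was called, beside 0.726% of all genes, and in DG against VIP 2, beside 0.594%.

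Ptk2b was lower in VIP nuclei than in CA1 and DG. It was at 96.2 to 135 CPM in 5 VIP animals, 183 to 1865 CPM in 6 CA1 animals and 1681, 2185 and 4025 CPM in the 3 DG animals. VIP did not overlap with either type. The edgeR log2 fold change was -2.98 (SE 0.43, adjusted p = 0.00106) for VIP against CA1 and 4.64 (SE 0.49, adjusted p = 2.92e-05) for DG against VIP. Wasf1, which encodes WAVE1, was at 217 to 375 CPM in DG animals and 2.39 to 58.9 CPM in VIP animals, with a log2 fold change of 3.48 (SE 0.76, adjusted p = 0.035). No signalling partner was called in the comparisons of FOS groups or exposures, beside 0% to 0.262% of all genes.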

How the data were processed

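The count tables were deposited by the authors as RSEM estimated counts (aligned with Bowtie to mm10; versions are not given in the sources used here), without normalization, and all values were whole numbers. The log2 values, also deposited by the authors, were log2(TPM + 1) with TPM (transcripts per 1000000) as RSEM gives it. Members share constant exons, so RSEM's division of such reads affects single alpha and gamma members. Smart-seq2 has no molecular identifiers or strand, so intervals cover counting error only. Rows without a value (30 in the count and 23 in the log2 tables) were left out, and 0 columns of per-sample values were unused. The genes and lists were chosen with earlier results of these data known.

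Kept nuclei had 142275 to 5885216 total counts (median 1251690). An animal was an exposure and a mouse number, of which 4 spanned 2 plate dates. Means over at least 2 nuclei per animal were compared with two-sided exact permutation tests. Their p-values were adjusted by Benjamini-Hochberg within a family of 5 (cell types, FOS groups) or 7 (exposure) comparisons. Summed counts were tested with edgeR 4.0.16 in R 4.3.3 (TMM, filterByExpr, quasi-likelihood test, Benjamini-Hochberg over all genes, threshold 0.05), with DESeq2 1.42.0 and limma 3.58.1 as alternatives. In DG, the 1 h groups are 1 animal, assumed to vary like the others. The tests were tried on simulated data. Named members were the C types, the 2 most and 2 least frequent of each cluster over 5 types, the 5 with the largest differences in share for DG and VIP against CA1, members passing edgeR, and listed partner genes passing edgeR. Python 3.11.15, numpy 2.4.6, pandas 2.3.3, matplotlib 3.10.9 and, for the exact 95% intervals, scipy 1.17.1 were used. Same-numbered sums of an animal correlated at -0.007 to 0.076 after removing group means. FOS+ and FOS- nuclei of a mouse are paired by animal, and the difference within animals was an alternative.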

Additional observations from a re-analysis of the deposited data

Results flagged for a closer look

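Groups of 4 to 10 animals were tested for a far animal on several measures each, in 42 tests. Chance flags about 1 in 20 for a single, normally spread measure, but these tests share animals, so that rate is no guide here. In 8 of the 42 tests, the most extreme animal stood apart from the rest. For the mean number of members, these were mouse 22 of the DG 5 h group, at 2.10 members per nucleus against 2.82 to 2.86 in the others, and HC mouse 8 among CA1 animals, at 7.33 from 3 nuclei. Pcdhgc5 was highest in CA1 1 h mouse 4, at 223 CPM, and in Sub 1 h mouse 10, at 204 CPM. Pcdhgb4 stood apart in A>A FOS+ mouse 16, at 23.9 CPM. Pcdhb22 did so in A>A FOS- mouse 25 (38.4 CPM), CA1 1 h mouse 10 (93.9 CPM) and VIP 1 h mouse 2 (183 CPM).

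Nuclei predicted as Ivy, Pvalb or Th (thalamus) entered no comparison. Ivy nuclei held a mean of 5.42 members (12 nuclei of 5 animals), Pvalb nuclei 4.25 (8 nuclei of 4 animals) and Th nuclei 5.14 (7 nuclei of 2 animals). These means have no control samples of their own.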

How the results depend on the processing

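No comparison of the number of all members passed an adjusted p of 0.05 under any alternative run. Within clusters, 1 comparison between FOS groups passed with a detection threshold of 3, where A>A FOS+ nuclei had fewer beta members. The differences below are in members per nucleus, first group minus second, and the cause of each turn in direction was not tested. For A>A FOS+ against FOS-, the difference was -0.80 at threshold 0 (exact permutation p = 0.039, adjusted p = 0.195), -0.15 at threshold 2, -0.28 at threshold 3, -0.41 with at least 5 counts as detection, -0.17 with nuclei thinned to 100000 counts, -0.061 without the read and gene minimum and, added after the data were seen, -0.25 without Pcdhb22 and Pcdhgb4. With the replicate block, which pairs nuclei within the animal, it was -0.26 in A>A, -0.42 in CA1, -0.20 in VIP and 0.27 in Sub, and no pairing changed a call. At threshold 3, DG against CA1 was 0.13, Sub against CA1 0.14, VIP FOS+ against FOS- 0.27, Sub FOS+ against FOS- -0.16, Sub 1 h against HC 0.46 and DG 5 h against 4 h 0.059. At threshold 2, Sub 1 h against HC was 0.39 and DG 5 h against 4 h 0.007. With at least 5 counts, DG against CA1 was 0.14, Sub against CA1 0.24, CA1 FOS+ against FOS- 0.18 and Sub 1 h against HC 0.32. After thinning, DG against CA1 was 0.022, CA3 against CA1 -0.092, Sub against CA1 0.34 and VIP FOS+ against FOS- 0.046. Per 1000 detected genes, DG against CA1 was 0.020, CA3 against CA1 -0.070 and DG 5 h against 4 h 0.027 members. Without the read and gene minimum, VIP FOS+ against FOS- was 0.31, and with at least 5 nuclei per animal Sub against CA1 was 0.60.

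Leaving out 1 animal at a time turned the direction of 7 comparisons, none of which passed the threshold. The ranges were -0.17 to 0.48 for CA3 against CA1, -0.48 to 0.18 for Sub against CA1 (positive without HC mouse 8), -0.90 to 0.59 for VIP FOS groups, -0.23 to 0.53 for Sub FOS groups, -0.14 to 0.16 for A>A FOS groups, -2.04 to 0.12 for CA1 exposure (positive without HC mouse 8) and -0.99 to 0.46 for DG 5 h against 4 h (positive without 4 h mouse 17).

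The edgeR count of members called stayed at 0 when an animal was left out and under the other settings run within edgeR. DESeq2 called 2 members in DG against CA1, 4 in VIP against CA1, 5 in DG against VIP, 5 in CA3 against CA1, 5 in Sub against CA1, 4 between VIP FOS groups, 3 in VIP exposure, 5 between DG 1 h FOS groups, 5 in A>A, 8 in A>C, 4 at 4 h and 11 at 5 h. These counts stand beside 2.91% to 9.05% of all genes that DESeq2 tested in the same comparisons. The log2 fold change of Pcdhgb4 in A>A became 0.14 with limma on log2(TPM + 1).

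The Jaccard index within animals fell at threshold 3 to 0.0686 in DG, 0.0366 in CA1, 0.0922 in VIP, 0.0417 in CA3, 0.110 in Sub and 0.0501 in the second experiment. Thinning gave 0.211 in CA1, 0.167 in VIP, 0.199 in CA3 and 0.180 in the second experiment. Without Pcdhb22 and Pcdhgb4 it was 0.0714 in DG, 0.102 in CA1, 0.0797 in VIP, 0.0908 in CA3, 0.148 in Sub and 0.0951 in the second experiment. With a median total of 1251690 counts per nucleus, a member that was not detected is not shown to be absent.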
